A study of Mus musculus with 16 samples.

Results

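The brush border hydrolases and peptidases are enzymes anchored in the apical membrane of intestinal epithelial cells, with their active sites facing the lumen. The genes followed here, 9 in all, were chosen by name: the alkaline phosphatases Alpi and Alpl, the aminopeptidases Anpep and Enpep, the dipeptidyl peptidase Dpp4, the meprin subunits Mep1a and Mep1b, the dipeptidyl carboxypeptidase Ace and the gamma-glutamyltransferase Ggt1. These are 9 of the 45513 genes counted, and 8 of them passed the filter on low counts. All 9 are protein coding, and none has exons that overlap another gene on the same strand in the GENCODE annotation. Of their 50-base stretches, the length of a read, 2.40% in Alpi and 1.30% in Mep1b also occur in transcripts of other genes, and none do in the other 7.

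As background, the enterocyte brush border finishes digestion at the cell surface. Aminopeptidases and dipeptidyl peptidases take residues from the amino end of a peptide, dipeptidyl carboxypeptidases take 2 residues from its carboxyl end, meprins cut within the chain, and gamma-glutamyltransferase opens glutathione so that its parts can be taken up. In the colon, where little dietary protein arrives, the same enzymes meet bacterial products, mucins and peptide hormones; intestinal alkaline phosphatase is known for removing phosphates from bacterial lipopolysaccharide, and meprin beta for cleaving the mucin MUC2. Several of these genes, Alpi foremost, serve as marks of absorptive enterocytes.

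RNA was sequenced from colon epithelium of 8 mice homozygous for Atoh1(WT)CreERT2, in which the tamoxifen-inducible recombinase CreERT2 is made from the Atoh1 locus, and heterozygous for the reporter Rosa26tdTom/+. The mice were of C57BL/6 background, males and females, 8 to 16 weeks old. Every mouse gave 1 library of EpCAM+ tdTom+ cells (tdTompositive, 8 libraries) and 1 of EpCAM+ tdTom- cells (tdTomnegative, 8 libraries), so both groups carried the same alleles and the same tamoxifen treatment and were told apart by the reporter. All mice had received tamoxifen at 1 mg per day for 3 days in a row, a schedule meant to label the secretory lineages as fully as possible. Atoh1 is a transcription factor of secretory cells. The tdTom+ population is therefore defined by activity of the Atoh1 locus while tamoxifen acted. The tdTom- population is a mixture of all epithelial cells without the label, whether or not the locus had been active in them at other times. Crypt-enriched fractions were sorted and the first fraction released from the tissue was discarded.

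The tdTom- libraries held 18318172 to 45791503 counts, with mouse 4 at the top and the next at 20668605, and the tdTom+ libraries held 16482530 to 24218367. Mitochondrial genes took 3.74% to 9.97% of counts in tdTom- libraries and 2.23% to 6.92% in tdTom+ libraries. The sorted populations carried the markers of their labels. The calls below stand beside 25.5% of all genes tested being lower and 25.5% higher at an adjusted p under 0.01. All 8 goblet cell markers were higher in tdTom+ cells, and their summed level was 2229 to 8663 CPM (counts scaled to a common library size) in tdTom- against 49189 to 103033 CPM in tdTom+ libraries. All 8 markers of colon absorptive cells were lower in tdTom+ cells, with sums of 11797 to 21367 CPM in tdTom- and 1904 to 2618 CPM in tdTom+ libraries. The 5 enteroendocrine markers all fell, with sums of 1290 to 3717 CPM in tdTom- and 273 to 728 CPM in tdTom+ libraries. The 4 stem cell markers all fell, with sums of 163 to 261 CPM in tdTom- and 133 to 177 CPM in tdTom+ libraries. Of the 4 tuft cell markers 2 fell and 2 were not past the threshold, with sums of 73.1 to 124 CPM and 42.0 to 91.3 CPM. The populations thus differed in these marker sets, and the part this played in each difference described here was not tested.

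The 9 enzymes split into 3 patterns. Of the 8 genes tested, 5 (Ggt1, Enpep, Alpi, Mep1a and Mep1b) were lower in tdTom+ than in tdTom- cells at an adjusted p under 0.01 (edgeR quasi-likelihood test over 15841 genes), against a background of 25.5% of all genes tested being lower at that threshold. The other 3, Anpep, Ace and Dpp4, were higher, against a background of 25.5% being higher. Alpl was at the limit of detection in both populations and was not tested. The 5 that fell did so by 11.6-fold to 40.5-fold, while the 3 that rose did so by 1.18-fold to 3.65-fold. In bulk libraries such as these, fewer cells of a type and less RNA per cell cannot be told apart.

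**Figure D1:**
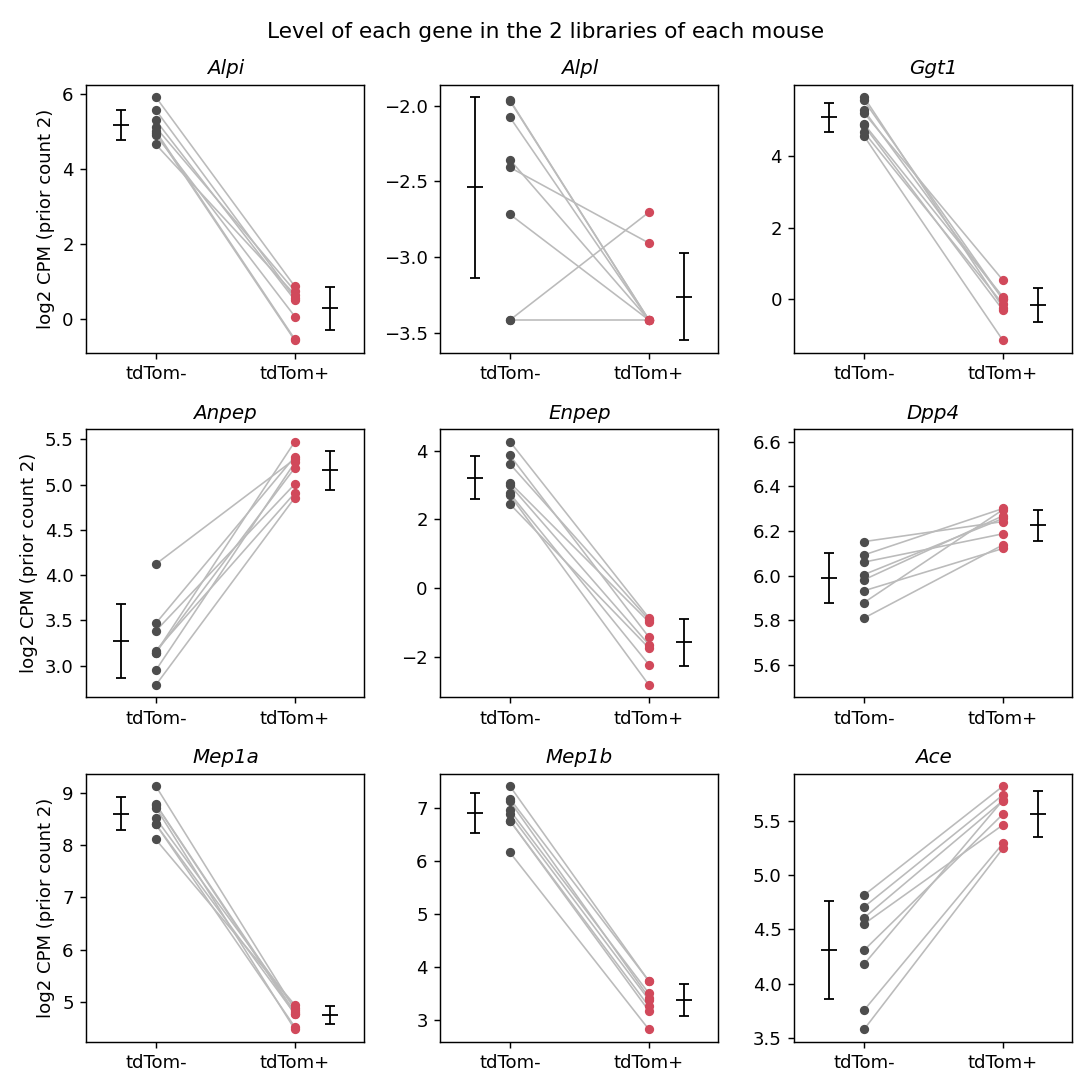
Each panel plots 1 gene as log2 CPM (with a prior count of 2, linear axis, scaled separately for each panel), with a dot for each of 8 tdTom- and 8 tdTom+ libraries, grey lines joining the libraries of a mouse, and a bar for the mean ± SD. The populations are separate for Alpi, Ggt1, Enpep, Mep1a and Mep1b (tdTom- above) and for Anpep and Ace (tdTom+ above), Dpp4 overlaps in part, and the Alpl panel spans libraries with 0 to 3 counts.

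Alpi encodes intestinal alkaline phosphatase, a protein tethered to the apical membrane by a lipid anchor (ENSMUSG00000079440, chr1:87098002-87101606, GRCm38, minus strand). In tdTom- libraries it ranged from 25.0 CPM in mouse 4 to 59.9 CPM in mouse 2, with a median of 33.1. In tdTom+ libraries it ranged from 0.582 to 1.74 CPM with a median of 1.36. The populations did not overlap, and the tdTom+ mean was 3.24% of the tdTom- mean. The log2 fold change was -4.91 ± 0.21 (SE, edgeR adjusted p = 6.18e-14), the 21st most negative of all genes tested. Alpi lies beside its close copies Akp3 and Alppl2, and 1.53% of its 50-base stretches also occur in Akp3. Both copies had at most 14 counts in any library, against 586 to 1286 counts of Alpi in tdTom- libraries.

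The other alkaline phosphatase, Alpl, encodes the tissue-nonspecific enzyme of bone, liver and kidney (ENSMUSG00000028766, chr4:137741733-137796384, minus strand). It had 0 to 3 counts in each tdTom- library and 0 or 1 in each tdTom+ library, 18 counts over all 16 libraries. A floor of 3 counts corresponds to 0.0583 CPM in the deepest library and 0.194 CPM in the shallowest, and no library exceeded it, so no fold change is given. Its mean was 0.0903 CPM in tdTom- and 0.0124 CPM in tdTom+ libraries, lower in tdTom+ in 6 mice and higher in 1. This difference between the populations was not tested.

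The 250 bases before the Alpi start site (RefSeq, GRCm38.p6, chr1:87101607-87101856, minus strand) are shown because Alpi is the phosphatase that was measured and its region holds the rarest of the motifs searched. Capitals mark matches to letters bound by intestinal factors or by the basal machinery, searched on both strands: TTTATNG for CDX2, CAAAGTCCA for HNF4A, AGATAA for GATA factors and TATAAA for the TATA box.
Alpi: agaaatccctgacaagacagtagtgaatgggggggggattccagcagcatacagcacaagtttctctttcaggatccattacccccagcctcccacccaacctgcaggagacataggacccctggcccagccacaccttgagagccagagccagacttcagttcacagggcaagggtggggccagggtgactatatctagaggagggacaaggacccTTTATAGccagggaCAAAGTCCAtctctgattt
The Alpi region holds the CDX2 letters at -33 to -27, where they overlap the TATA letters read on the opposite strand, and the HNF4A letters at -19 to -11. The second of 2 Alpl start regions, not printed here, also holds the CDX2 letters, at -192 to -186, overlapping the TATA letters. Among 32851 RefSeq promoters cut to the same length, 9.81% hold the CDX2 letters, 0.384% the HNF4A letters, 9.99% the GATA letters and 12.4% the TATA letters. A match is a run of letters and not a measured binding site.

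Ggt1 encodes the surface enzyme that removes the gamma-glutamyl group from glutathione (ENSMUSG00000006345, chr10:75561604-75586200, plus strand). It ranged from 23.4 CPM in mouse 7 to 49.6 CPM in mouse 2 in tdTom- libraries, with a median of 33.0. The tdTom+ libraries ran from 0.359 CPM, again in mouse 7, to 1.35 CPM in mouse 1, with a median of 0.861. The populations did not overlap in any library, and Ggt1 was lower in the tdTom+ library of 8 of 8 mice. Its log2 fold change was -5.34 ± 0.21 (SE, edgeR adjusted p = 9.78e-15), the 6th most negative of 15841 genes and the furthest from 0 among the 8 enzymes tested. The tdTom+ mean was 2.44% of the tdTom- mean.

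The aminopeptidases moved in opposite directions. Enpep encodes glutamyl aminopeptidase, which removes acidic residues and converts angiotensin II to angiotensin III (ENSMUSG00000028024, chr3:129269175-129332720, minus strand). It ranged from 5.34 CPM in mouse 5 to 19.1 CPM in mouse 3 in tdTom- libraries, with a median of 8.07. In tdTom+ libraries it ranged from 0.0477 to 0.453 CPM with a median of 0.251, which is 1 to 8 counts per library; mice 4 and 7, with 1 and 2 counts, were under the floor of 3. Its log2 fold change was -5.19 ± 0.35 (SE, edgeR adjusted p = 4.58e-11), the largest SE among the 8 genes, and the 10th most negative of all genes tested.

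Anpep encodes aminopeptidase N, known as CD13, which prefers neutral residues and is abundant on the small intestinal brush border (ENSMUSG00000039062, chr7:79821803-79848210, minus strand). It ranged from 6.80 CPM in mouse 4 to 17.3 CPM in mouse 3 in tdTom- libraries, with a median of 8.81. Its tdTom+ range was 28.9 CPM, again in mouse 4, to 44.4 CPM in mouse 5, and the median was 37.0. The lowest tdTom+ library lay above the highest tdTom- library. The log2 fold change was 1.87 ± 0.15 (SE, edgeR adjusted p = 8.75e-10), or 3.65-fold. It was 1.55 in mice 1 to 3 alone and 2.09 in mice 5 to 8 alone; the mouse numbers fall into these runs with mouse 4 between them, and what the runs stand for was not given.

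Within each mouse, the Anpep ratio exceeded the Enpep ratio by 6.68 on the log2 scale (8 of 8 mice, exact sign-flip permutation test over mice, two-sided p = 0.00781, adjusted p = 0.0117 over 9 pairs of genes, where 0.00781 is the smallest p that 8 mice can give). The interval of this difference, from inverting the exact test at 95%, was 6.26 to 7.19. Both were computed with a prior count of 2, which weighs on Enpep at its low tdTom+ counts. With a prior count of 0.5 the difference was 7.08. Per kilobase, Anpep RNA stood at 1.33 ± 0.44 (SD, n = 8) times that of Enpep in tdTom- libraries. In tdTom+ libraries the ratio ranged from 104 to 734 over mice, with the upper end in mouse 4, where Enpep had 1 count. The start regions of both genes (250 bases each, GRCm38.p6, minus strand, chr3:129332750-129332999 for Enpep and chr7:79848211-79848460 for Anpep) are set side by side because the genes encode like enzymes and moved apart, with capitals as above.
Enpep: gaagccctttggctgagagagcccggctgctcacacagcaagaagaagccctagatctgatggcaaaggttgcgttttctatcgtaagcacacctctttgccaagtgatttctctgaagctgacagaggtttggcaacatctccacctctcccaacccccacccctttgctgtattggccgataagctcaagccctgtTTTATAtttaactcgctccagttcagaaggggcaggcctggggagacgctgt
Anpep: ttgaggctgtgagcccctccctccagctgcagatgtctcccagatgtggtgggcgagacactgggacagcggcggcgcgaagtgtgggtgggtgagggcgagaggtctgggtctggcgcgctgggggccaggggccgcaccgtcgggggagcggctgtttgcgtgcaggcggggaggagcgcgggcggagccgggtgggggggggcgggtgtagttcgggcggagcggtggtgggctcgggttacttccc
The Enpep region holds the TATA letters at -52 to -47 on the opposite strand and is 52.4% G or C. The Anpep region holds none of the 4 runs of letters and is 72.8% G or C, against a median of 52.4% over all promoters.

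Mep1a and Mep1b encode the alpha and beta subunits of meprin, a zinc endopeptidase of the astacin family. The alpha subunit can be shed into the lumen, and the beta subunit is anchored in the membrane. They held the highest levels of the 9 genes in tdTom- cells. Mep1a (ENSMUSG00000023914, chr17:43474324-43502812, minus strand) ranged from 277 CPM in mouse 4 to 563 CPM in mouse 2 in tdTom- libraries, with a median of 395. The tdTom+ libraries ran from 22.0 CPM in mouse 1 to 30.5 CPM in mouse 4, with a median of 27.4. Its tdTom+ mean was 6.75% of the tdTom- mean, and the log2 fold change was -3.89 ± 0.13 (SE, edgeR adjusted p = 1.27e-15), with -4.18 in mice 1 to 3 alone and -3.80 in mice 5 to 8 alone.

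Mep1b (ENSMUSG00000024313) ranged from 71.3 CPM in mouse 4 to 169 CPM in mouse 2 in tdTom- libraries, with a median of 120. It ranged from 7.01 CPM, again in mouse 4, to 13.3 CPM in mouse 3 in tdTom+ libraries, with a median of 10.5. The log2 fold change was -3.54 ± 0.16 (SE, edgeR adjusted p = 7.45e-14), and the tdTom+ mean was 8.61% of the tdTom- mean. Of the 5 genes that fell, Mep1b varied least between mice: its log2 ratio between the populations ran from -3.69 to -3.33, an SD of 0.12. In tdTom- libraries mouse 2 was highest and mouse 4 lowest for both subunits, while in tdTom+ libraries mouse 4 was highest for Mep1a and lowest for Mep1b.

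Mep1a RNA per kilobase was 2.18 ± 0.26 (SD, n = 8) times that of Mep1b in tdTom- libraries and 1.76 ± 0.47 times in tdTom+ libraries. The log2 ratio of Mep1a minus that of Mep1b was -0.35, and negative in 7 of 8 mice, so that Mep1a fell further (exact sign-flip permutation test, two-sided p = 0.0234, adjusted p = 0.0301); mouse 4 went the other way. This difference was past the threshold of 0.05 with all 8 mice, but leaving out mouse 1, 2, 3, 5, 7 or 8 gave differences of -0.37 to -0.30 and an adjusted p of 0.0603. The start region of Mep1a (250 bases, GRCm38.p6, chr17:43502774-43503023, minus strand), the most abundant of the 9 transcripts in tdTom- cells, is shown for comparison with that of Alpi.
Mep1a: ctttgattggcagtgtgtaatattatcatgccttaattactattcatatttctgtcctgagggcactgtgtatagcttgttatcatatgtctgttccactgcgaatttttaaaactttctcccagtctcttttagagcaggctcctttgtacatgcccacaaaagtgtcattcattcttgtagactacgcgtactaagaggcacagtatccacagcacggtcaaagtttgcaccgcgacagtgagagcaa
It holds none of the 4 runs of letters and is 41.6% G or C. Start regions were cut before RefSeq starts, which can differ from the gene ends given here. The Mep1a region, and the Ace region by a few bases, reach into the counted genes. The Enpep start lies upstream of its counted gene. No start region was available for Mep1b, so its letters were not searched.

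Dpp4 encodes dipeptidyl peptidase 4, known as CD26, a serine protease that clips 2 residues from peptides such as the incretin hormones (ENSMUSG00000035000, chr2:62330073-62412231, minus strand). It ranged from 56.0 CPM in mouse 2 to 71.1 CPM in mouse 4 in tdTom- libraries, with a median of 63.6. The tdTom+ values ran from 69.6 CPM in mouse 8 to 78.8 CPM in mouse 1, with a median of 76.0. The ranges overlapped through mouse 4, whose tdTom- library lay above the lowest tdTom+ libraries, while 7 of 8 tdTom- libraries were below every tdTom+ library. Dpp4 was higher in the tdTom+ library of 8 of 8 mice, by 0.09 to 0.42 on the log2 scale. The log2 fold change was 0.23 ± 0.05 (SE, edgeR adjusted p = 6.74e-04), or 1.18-fold. This call was lost when libraries were scaled by total counts alone (0.18, adjusted p = 0.0439) and in mice 1 to 3 alone (0.26, adjusted p = 0.0574). Of the 8 genes tested, Dpp4 was the steadiest between mice, with a coefficient of variation of 7.84% in tdTom- and 4.75% in tdTom+ libraries.

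Ace encodes angiotensin-converting enzyme, which converts angiotensin I to angiotensin II (ENSMUSG00000020681, chr11:105967945-105989964, plus strand). It ranged from 11.8 CPM in mouse 1 to 28.1 CPM in mouse 5 in tdTom- libraries, with a median of 21.5. In tdTom+ libraries it ranged from 37.9 to 56.5 CPM with a median of 49.4, and the same mice held the ends of the range, mouse 1 the lowest and mouse 5 the highest. The populations did not overlap. The log2 fold change was 1.22 ± 0.15 (SE, edgeR adjusted p = 4.88e-07), or 2.33-fold. Ace has 2 start sites in RefSeq, and a count per gene does not separate the transcripts that begin at each. The first (250 bases, GRCm38.p6, chr11:105967698-105967947, plus strand) is shown beside those of the genes that fell.
Ace: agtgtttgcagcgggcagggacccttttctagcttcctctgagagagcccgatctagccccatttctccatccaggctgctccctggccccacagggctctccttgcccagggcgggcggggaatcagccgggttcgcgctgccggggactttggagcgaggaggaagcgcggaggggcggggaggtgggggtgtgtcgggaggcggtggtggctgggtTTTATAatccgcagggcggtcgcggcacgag
The Ace region holds the TATA letters at -31 to -26 on the opposite strand and is 67.2% G or C. The other gene that rose, Dpp4, has a region, not printed here, that is 43.6% G or C; it holds the GATA letters at -32 to -27 and, overlapping each other, the CDX2 letters at -228 to -222 and the TATA letters at -227 to -222. The 4 start regions of Ggt1 are 54.8% to 60.4% G or C, the first with the GATA letters at -97 to -92 and the fourth with the TATA letters at -134 to -129. On the opposite strand, exons of another gene cover 5.58% of the exon bases of Ace and 3.67% of those of Dpp4, and the counts were made by strand. The fold change of Ace was 1.30 in mice 1 to 3 alone and 1.11 in mice 5 to 8 alone, on the log2 scale.

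Anpep, Ace and Dpp4 are also known from cells outside the epithelium: Anpep from myeloid cells, Dpp4 from T cells and Ace from endothelium. The levels of markers of such cells are given beside these results, and their part in them was not tested. The 8 immune markers, summed, ranged from 4.74 to 28.5 CPM in tdTom- and from 2.10 to 4.98 CPM in tdTom+ libraries; 2 of the 8 could be tested and Ptprc fell (log2 fold change -1.52 ± 0.21, SE), with Lyz2 also past the threshold when the mouse was entered as a replicate block. The 5 fibroblast markers summed to at most 0.812 CPM in any tdTom- library and 0.525 CPM in any tdTom+ library. The 4 endothelial markers summed to 2.27 to 3.67 CPM in tdTom- and 0.95 to 1.30 CPM in tdTom+ libraries. Their means were 2.63 and 0.872 CPM for Pecam1 and 0.454 and 0.214 CPM for Plvap. Kdr went the other way, at 0.0175 and 0.0274 CPM with at most 3 counts in any library, and Cdh5 had at most 1 count in any library. Lyz2, Plvap, Kdr and Cdh5 are named after their values were seen.

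**Figure D2:**
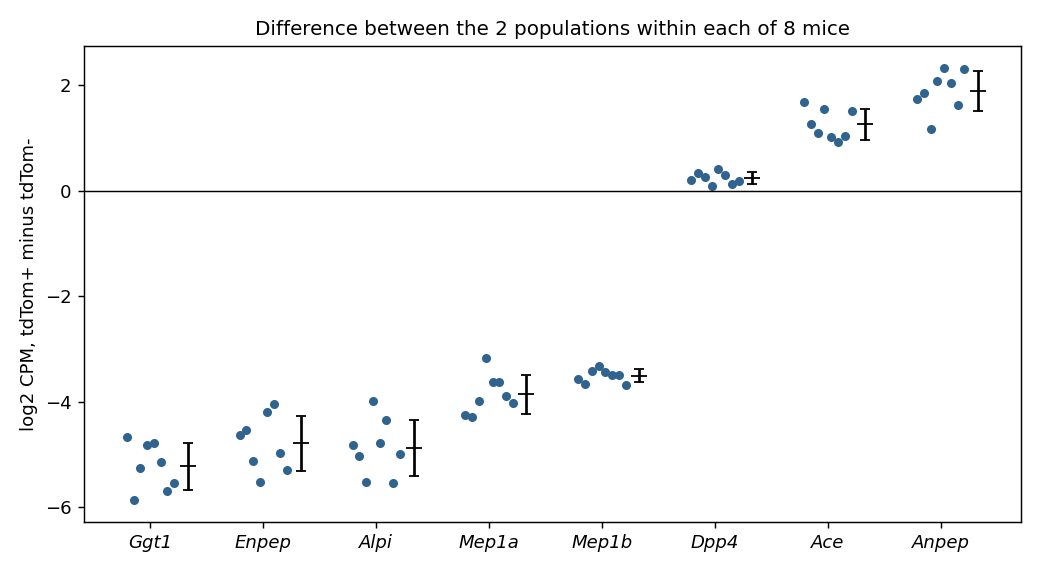
Dots are the log2 CPM of the tdTom+ library minus that of the tdTom- library of the same mouse, for 8 mice in order from left to right within each gene, with the mean ± SD at the right. All 8 dots lie below 0 for Ggt1, Enpep, Alpi, Mep1a and Mep1b and above 0 for Dpp4, Ace and Anpep.

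The sizes of the changes were compared between neighbouring genes within mice. Alpi fell further than Mep1a, with a difference of -1.02 on the log2 scale (95% interval -1.38 to -0.70) and the same direction in 8 of 8 mice (exact sign-flip permutation test, adjusted p = 0.0117). Neighbours among the 3 genes that fell furthest were not past the threshold; Ggt1 and Alpi, which are not neighbours, were not compared. Enpep and Alpi differed by 0.09 with an interval of -0.54 to 0.53 (adjusted p = 0.773, exact), and Ggt1 and Enpep by -0.43 with an interval of -1.01 to 0.15 (adjusted p = 0.0967, exact). Leaving out mouse 4 alone, whose tdTom+ library had 1 count of Enpep, brought both differences past 0.05, at 0.32 and -0.59. Both were computed with a prior count of 2. With a prior count of 0.5 and all mice, the differences were -0.21 and -0.16 (exact sign-flip permutation test, adjusted p = 0.789 and 0.703). The edgeR fit without mouse 4 gave -5.00 for Alpi, -5.08 for Enpep and -5.38 for Ggt1, so Enpep did not fall less than Alpi there. The log2 ratio of Dpp4 minus that of Ace was -1.02, and that of Ace minus that of Anpep -0.63, so that Anpep rose furthest of the 3, each in 8 of 8 mice (exact, adjusted p = 0.0117).

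Levels of different genes were compared per kilobase of exon length, as RPKM, which is CPM divided by the exon length in kilobases. In tdTom- cells Mep1a stood at 115 ± 25.5 RPKM (SD, n = 8) and Mep1b at 53.5 ± 12.8, followed by Alpi at 15.9 ± 4.84, Ggt1 at 10.2 ± 2.85 and Dpp4 at 10.1 ± 0.79. Below these came Ace at 3.89 ± 1.11, Anpep at 2.56 ± 0.84 and Enpep at 2.13 ± 1.01 RPKM. By the mean of log2 RPKM the order was Mep1a, Mep1b, Alpi, Dpp4, Ggt1, Ace, Anpep and Enpep, with Dpp4 ahead of Ggt1, and 5 of its 7 steps were past the threshold (exact sign-flip permutation tests over 8 mice, adjusted over the 7 steps). The order came from these same libraries, so the direction of each step was set before its test. Dpp4 and Ggt1 differed by 0.03 with an interval of -0.40 to 0.41, and Anpep and Enpep by 0.34 with an interval of -0.12 to 0.75. The steps from Alpi to Dpp4 (0.62, adjusted p = 0.0273, exact) and from Ace to Anpep (0.59, adjusted p = 0.0328, exact) were each seen in 7 of 8 mice. The first was lost without mouse 2, 5, 6 or 7 (0.49 to 0.65, adjusted p = 0.0547, exact), and the second without mouse 2, 4, 5, 6, 7 or 8 (0.50 to 0.62, adjusted p = 0.0547 to 0.0656, exact). Without mouse 8 the step from Anpep to Enpep passed the threshold, at 0.48.

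In tdTom+ cells the order was different. Dpp4 stood first at 11.8 ± 0.56 RPKM (SD, n = 8), then Anpep at 9.27 ± 1.37, Ace at 9.02 ± 1.28, Mep1a at 7.79 ± 0.88 and Mep1b at 4.61 ± 0.92. Alpi at 0.516 ± 0.189, Ggt1 at 0.248 ± 0.081 and Enpep at 0.0577 ± 0.0320 RPKM came last. Anpep and Ace differed by 0.04 on the log2 scale with an interval of -0.09 to 0.15, and Ace and Mep1a by 0.20 with an interval of -0.002 to 0.41. The other 5 steps were past the threshold, the largest being the drop of 3.13 on the log2 scale from Mep1b to Alpi (95% interval 2.59 to 3.73, 8 of 8 mice, exact adjusted p = 0.0137). The step from Ace to Mep1a passed the threshold without mouse 4, at 0.27, and that from Anpep to Ace without mouse 7, at 0.09.

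**Figure D3:**
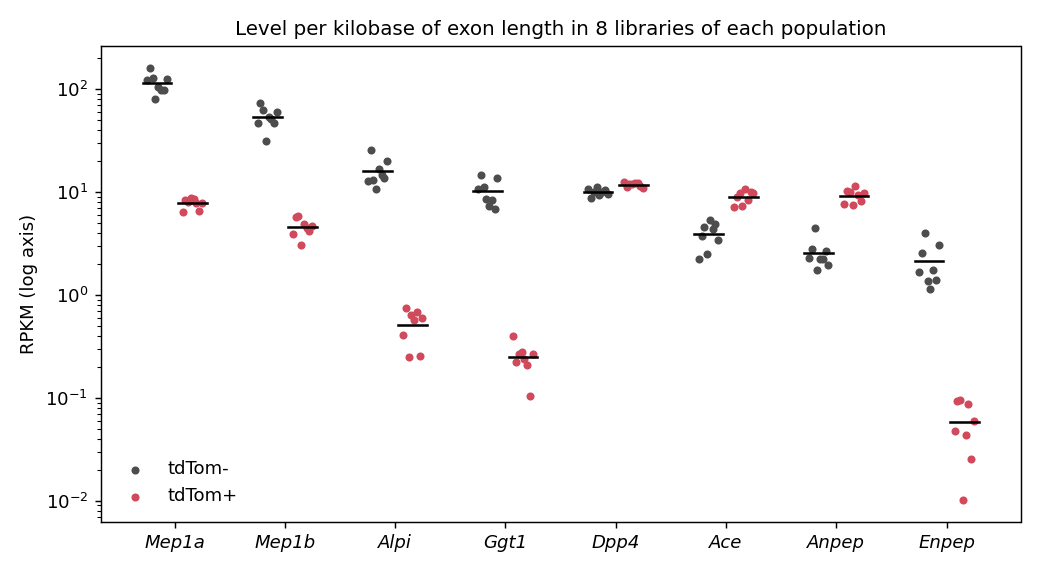
RPKM on a log axis for the 8 genes that passed the filter, with a dot for each of 8 tdTom- (grey) and 8 tdTom+ (red) libraries and a line at the mean. The meprins lead in tdTom- cells, at means of 115 and 53.5 RPKM, while Dpp4, Anpep, Ace and Mep1a lie between 7.79 and 11.8 RPKM in tdTom+ cells.

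Summed over the 9 genes, the level was 697 ± 134 CPM (SD, n = 8) in tdTom- and 198 ± 13.7 CPM in tdTom+ libraries. The make-up of that sum changed with its size. Per kilobase, the meprin subunits took 53.9% (Mep1a) and 24.9% (Mep1b) of the 9 genes in tdTom- cells, against 18.0% and 10.6% in tdTom+ cells. Dpp4 took 4.94% in tdTom- and 27.5% in tdTom+ cells, Anpep 1.21% and 21.3%, and Ace 1.87% and 20.8%. The sum of the 3 genes that rose was 94.1 ± 7.21 CPM in tdTom- and 159 ± 11.1 CPM in tdTom+ libraries.

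The populations did not overlap for 7 of the 8 genes tested. All tdTom+ libraries lay below every tdTom- library for 5 genes, which holds for 15.3% of all genes tested, and above every tdTom- library for Anpep and Ace, which holds for 15.2%. The gene whose log2 CPM over the 16 libraries was most like that of each member is given as a description; as the libraries form 2 groups, any gene that splits them alike scores high. It was Hkdc1 for Alpi (Pearson r = 0.994), Tmigd1 for Enpep (0.990), Slc51a for Ggt1 (0.994), Mall for Mep1a (0.998) and Ces2b for Mep1b (0.997). Their log2 fold changes lay between -4.54 and -3.96. For the genes that rose it was Serpina9 for Anpep (r = 0.983), Gsn for Ace (0.974) and Tspan14 for Dpp4 (0.946).

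Other apical hydrolases were read against the same background of 25.5% of genes being lower and 25.5% higher. Of 20 in the list, 12 could be tested; 8 fell, 3 rose, which is no more than the background, and 1 was not past the threshold, with a median log2 fold change of -1.09 against 0.004 over all genes tested. The largest falls were those of Vnn1, the pantetheinase (-4.30 ± 0.25, SE), Dpep1, the dipeptidase that splits the cysteinylglycine left by gamma-glutamyltransferase (-3.81 ± 0.12), and Nt5e, the ecto-5'-nucleotidase CD73 (-3.48 ± 0.17). The mean level of Dpep1 went from 323 CPM (tdTom-) to 22.9 CPM (tdTom+). The 3 that rose were Enpp3, a nucleotide pyrophosphatase (2.72 ± 0.27), Xpnpep2, the membrane-bound aminopeptidase P (1.82 ± 0.11), and Asah2, the neutral ceramidase (1.82 ± 0.08), each in 8 of 8 mice.

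Mme, which encodes neprilysin, was the 1 tested gene of that list not past the threshold (-0.42 ± 0.16, SE, edgeR adjusted p = 0.0284), though it passed, at an adjusted p of 0.00939, when the mouse was entered as a replicate block; it is named after its value was seen. The remaining 8 genes of the list were filtered out for low counts. Among them, Folh1, Enpp7 and Tmprss15 had no count in any library, which allows up to 3 counts per library, and the phosphatases Akp3 and Alppl2 had means of 0.288 and 0.403 CPM in tdTom- libraries and 0.006 and 0.032 CPM in tdTom+ libraries; these too are named after their values were seen.

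Relatives of the 9 enzymes that are not known as brush border enzymes formed the next list. Of 15, 9 could be tested; 3 fell, 1 rose and 5 were not past the threshold, with 2 rising when the mouse was entered as a replicate block, and the median log2 fold change was -0.02. The share that fell was above the background of 25.5% and the share that rose below it. With 9 genes, neither was tested against it. Those that fell were Ggt7, a relative of Ggt1 (-1.61 ± 0.24, SE), Bmp1, an astacin protease like the meprins (-1.36 ± 0.13), and Dpp9, a cytosolic relative of Dpp4 (-0.32 ± 0.06). The 1 that rose was Fap, the closest relative of Dpp4, from 1.86 ± 0.614 to 5.24 ± 1.64 CPM (SD, n = 8; log2 fold change 1.51 ± 0.22, SE). Erap1 and Lnpep, aminopeptidases of the same family as Enpep and Anpep that work inside the cell, had log2 fold changes of -0.05 ± 0.07 and -0.02 ± 0.09 (SE, not past the threshold); they are named after their values were seen.

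The cytosolic peptidases, which finish the breakdown of the di- and tripeptides taken up, were measured in full. Of 10, all were tested; 4 fell and 3 rose, and the median log2 fold change was 0.03. Both shares were above the background of 25.5% in each direction. With 10 genes, neither was tested against it. None changed by as much as 1 on the log2 scale. The largest falls were those of Cndp2 (-0.62 ± 0.07, SE), Npepps (-0.41 ± 0.05) and Blmh (-0.25 ± 0.06), and the rises were those of Pepd (0.86 ± 0.06), Lap3 (0.68 ± 0.06) and Tpp2 (0.20 ± 0.06). The fall of the fourth, Rnpep, lay at the edge of the threshold (edgeR adjusted p = 0.00999); it is named after its value was seen.

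The structural proteins of the brush border were also lower. All 10 genes of that list fell, against a background of 25.5% of all genes, and their median log2 fold change was -0.80. The largest falls were those of the microvillus tip cadherins Cdhr2 (-1.97 ± 0.10, SE) and Cdhr5 (-1.83 ± 0.11) and of the actin bundler Espn (-1.93 ± 0.11). The 8 absorptive cell markers had a median log2 fold change of -4.30, with Aqp8 (-5.18 ± 0.19), Car4 (-4.98 ± 0.17) and Ceacam20 (-4.65 ± 0.14) the furthest, beside -5.34 for Ggt1, -5.19 for Enpep and -4.91 for Alpi.

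**Figure D4:**
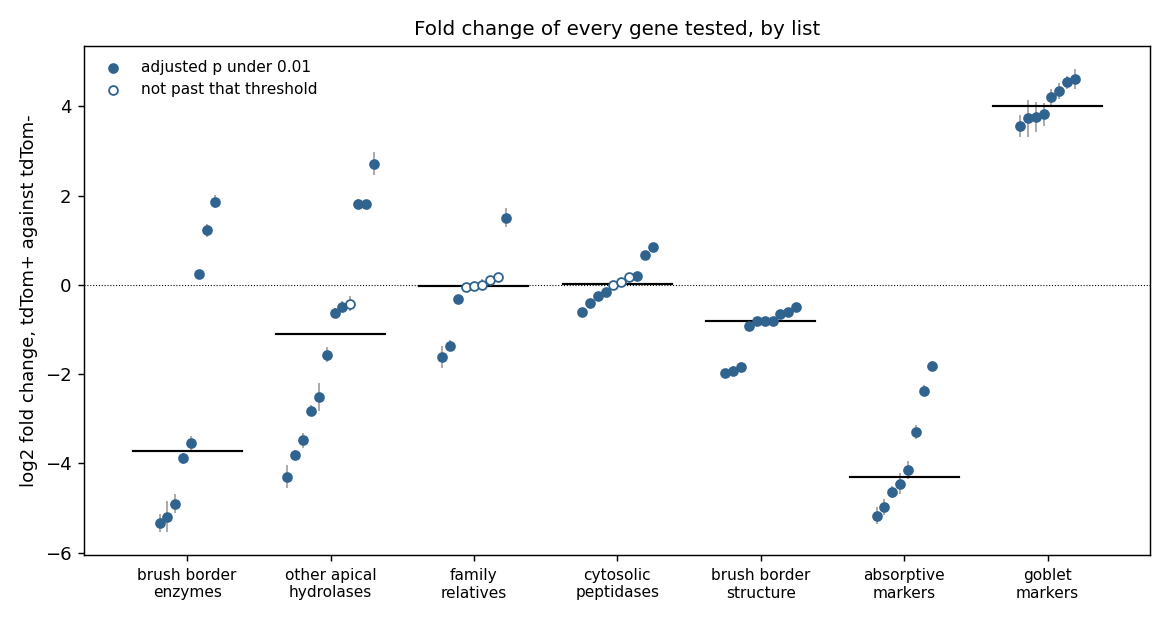
Log2 fold change of tdTom+ against tdTom- (± SE) for every gene tested, by list, with filled dots for adjusted p under 0.01, open dots for the rest and a line at the list's median. The medians run from -4.30 for absorptive markers and -3.71 for the 8 brush border enzymes tested, through -1.09 for other apical hydrolases, to -0.02 and 0.03 for family relatives and cytosolic peptidases, and 4.01 for goblet markers.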

How the data were processed

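The values are raw read counts per gene, deposited by the authors as 1 file per library. Per the labels and methods, libraries were stranded mRNA libraries sequenced as single reads of 50 bases. Per the submitters' processing notes the tools were TopHat2 2.1.1, Subread 1.5.2 and DESeq2 1.14.1, and per the file headers featureCounts 1.5.0-p1 counted primary alignments over exons of GRCm38 genes by strand. Symbols came from a name table that matched 44585 of 45513 genes.

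Counts were tested with edgeR 4.0.16 (quasi-likelihood, R 4.3.3) on genes kept by filterByExpr with TMM scaling, 15841 genes, 8 libraries against 8, Benjamini-Hochberg adjustment and a threshold of 0.01. This test returns no standard error. The SE given with its log2 fold changes is their absolute size divided by the square root of the F statistic. CPM used TMM-scaled library sizes; log2 CPM used a prior count of 2; RPKM divided CPM by the exon length in the files. Members' changes and levels were compared by exact two-sided sign-flip permutation tests over 8 mice, adjusted over the pairs, with a threshold of 0.05, and intervals came from inverting that test at a level of 0.95. Neighbouring genes were paired by their order in these same libraries, and the p-values do not allow for that choice. Other fits used the mouse as a replicate block, DESeq2 1.42.0, limma-voom (limma 3.58.1), other scalings and filters, mice 1 to 3 or 5 to 8 only, and each mouse left out. The fits were also run on simulated counts with known changes, with the same spread set for every gene. That run does not cover genes that vary more.

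Libraries share a mouse number by title, so they come from the same animal; deviations from group means correlated at 0.22 to 0.41 within the 8 mice, across genes. No pair of libraries agreed within counting noise. The main edgeR fit has no mouse term, so its p-values measure the spread between libraries within a population and leave the pairing out. The fit with the mouse as a replicate block takes the pairing in. The sign-flip p-values measure the spread, between these mice, of differences taken within each mouse. Counting noise alone sets the floor of 3 counts.

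The members and lists were chosen with earlier results of these data known. Named genes were the 9 members; in every other list up to 3 with the largest rise and 3 with the largest fall past the threshold, and 1 gene that is not reported here; and for each member the gene with the highest Pearson r. Genes named outside this rule are marked as named after their values were seen.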

Additional observations from a re-analysis of the deposited data

How the results depend on the processing

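Of 507 repeats of the results under other settings, 473 kept their direction and call, where a count was taken as kept if it moved by at most 1.5 times. Every log2 fold change of Ggt1, Enpep, Alpi, Mep1a, Mep1b, Ace and Anpep stayed past 0.01 in the same direction wherever the gene was kept; with at least 10 counts required in every library, Ggt1, Enpep and Alpi were filtered out and 2 enzymes fell. Dpp4 lost its call when scaled by total counts only (0.18) and in mice 1 to 3 only (0.26). With the mouse as a replicate block, 5 enzymes fell and 3 rose as without it, and 2 family relatives rose instead of 1, as also at an adjusted p under 0.05 (2); no other count of the 4 lists moved by over 1.5 times under the block. In mice 1 to 3 only, 1 family relative and 2 cytosolic peptidases fell, and in mice 5 to 8 only 2 cytosolic peptidases fell; fewer mice entered those fits.

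A prior count of 0.5 turned the difference between Enpep and Alpi to -0.21 and brought that between Ggt1 and Enpep to -0.16. When single mice were omitted, the difference ranged from 0.0166 to 0.32 for Enpep and Alpi, from -0.59 to -0.30 for Ggt1 and Enpep and from -0.42 to -0.30 for Mep1a and Mep1b. Steps between levels per length ranged likewise in tdTom- cells from 0.49 to 0.71 (Alpi, Dpp4), from -0.0573 to 0.13 (Dpp4, Ggt1), from 0.50 to 0.68 (Ace, Anpep) and from 0.25 to 0.48 (Anpep, Enpep), and in tdTom+ cells from 0.0180 to 0.0866 (Anpep, Ace) and from 0.15 to 0.27 (Ace, Mep1a). The smallest exact p is larger with 7 mice than with 8. Beyond these, the cause of a change was not tested. Depth limits Enpep in tdTom+ cells, at 1 to 8 counts, and Alpl in both populations.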

Other observations

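The mouse numbers fall into 2 runs, mice 1 to 3 and mice 5 to 8, with mouse 4 apart, and the levels of the enzymes in tdTom- cells are given by run, with no test. Mep1a stood at 423 to 563 CPM in mice 1 to 3, at 277 CPM in mouse 4 and at 338 to 440 CPM in mice 5 to 8. Ggt1 had a mean of 41.5 CPM in mice 1 to 3, 29.5 CPM in mouse 4 and a mean of 30.9 CPM in mice 5 to 8. Alpi had means of 40.2 and 38.1 CPM in the runs, Mep1b of 140 and 122, Enpep of 13.0 and 8.66, Anpep of 12.4 and 8.87 and Dpp4 of 62.8 and 62.4, while Ace went the other way, at 18.6 and 23.9 CPM. In tdTom+ cells Mep1a had means of 26.2 and 26.5 CPM in the runs and 30.5 CPM in mouse 4. Mouse 4 had the deepest tdTom- library and the lowest tdTom- level of Alpi, Anpep, Mep1a and Mep1b, and the highest of Dpp4. None of the 16 sets of 8 libraries (8 genes, 2 populations) held a library far from the rest by Dixon's criterion, where chance would give 0.8.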
